A study of Mus musculus with 6 samples.

Results

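Genes for proteins that the retinal pigment epithelium (RPE) carries on its surface or releases were compared between 3 libraries labelled AAV-PDGF-D and 3 labelled AAV-GFP. The genes were taken by name, with 9 names listed and the rows of EZR, CRIM1, BEST1, C1QTNF5, SERPINF1, HTRA1, SULF1 and TTR analysed, which makes 8 of the 16191 rows of the table. MFRP, the ninth name, was not analysed here. According to the labels and the methods, RNA of the RPE-choroid complex was taken from C57BL/6J mice 4 weeks after subretinal injection of an adeno-associated virus (AAV) carrying human PDGF-D, or GFP as the control. In both vectors the transgene was driven by the human VMD2 promoter, which is specific for RPE cells and belongs to the gene now called BEST1. The methods give an age of 6 to 8 weeks for the mice of the study, and the sources used here do not state that each library was from a mouse of its own, so a p-value reflects only how much these 6 libraries vary, which may be technical. Mouse tissue and the mouse build mm10 are named in the methods, but the rows of the table are human genes, with human Ensembl IDs and 0 mouse IDs. Values are therefore given for the libraries as labelled, and are not used to describe mouse tissue.

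The RPE is a single sheet of pigmented cells between the photoreceptors and the choroid. Its apical microvilli wrap the photoreceptor tips and are held in shape by ezrin, its basal membrane carries the channel bestrophin 1, and it releases proteins in both directions, among them PEDF toward the retina. Several of these genes are known from inherited or age-related eye disease, including BEST1 in Best vitelliform dystrophy, C1QTNF5 in late-onset retinal degeneration, MFRP in nanophthalmos and the HTRA1 region in age-related macular degeneration.

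C1QTNF5 was lower with the label AAV-PDGF-D, and it was the only one of the 8 genes to pass the full call. Another 3 genes, SERPINF1, HTRA1 and CRIM1, were lower at the adjusted p but changed by less than 1.5-fold. EZR, SULF1, BEST1 and TTR did not pass, and no gene of the group was called higher. Levels are in FPKM, fragments per kilobase of transcript, scaled to the mapped fragments of the library. The fit was limma on log2(FPKM + 0.1) over the whole table. Genes were called where the adjusted p did not exceed 0.1, the change reached 1.5-fold and the mean reached 1 FPKM. Of the 11444 rows with that mean, 1.75% were called lower and 2.01% higher. At the adjusted p without the fold threshold, 11.7% were lower and 20.9% higher, beside 4 and 0 of the 7 genes with that mean. The median log2 fold change over the 8 genes was -0.12, against 0.03 over all 13821 rows of the fit. These genes were chosen by name with earlier results of the table known, so their counts are a description.

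**Figure D1:**
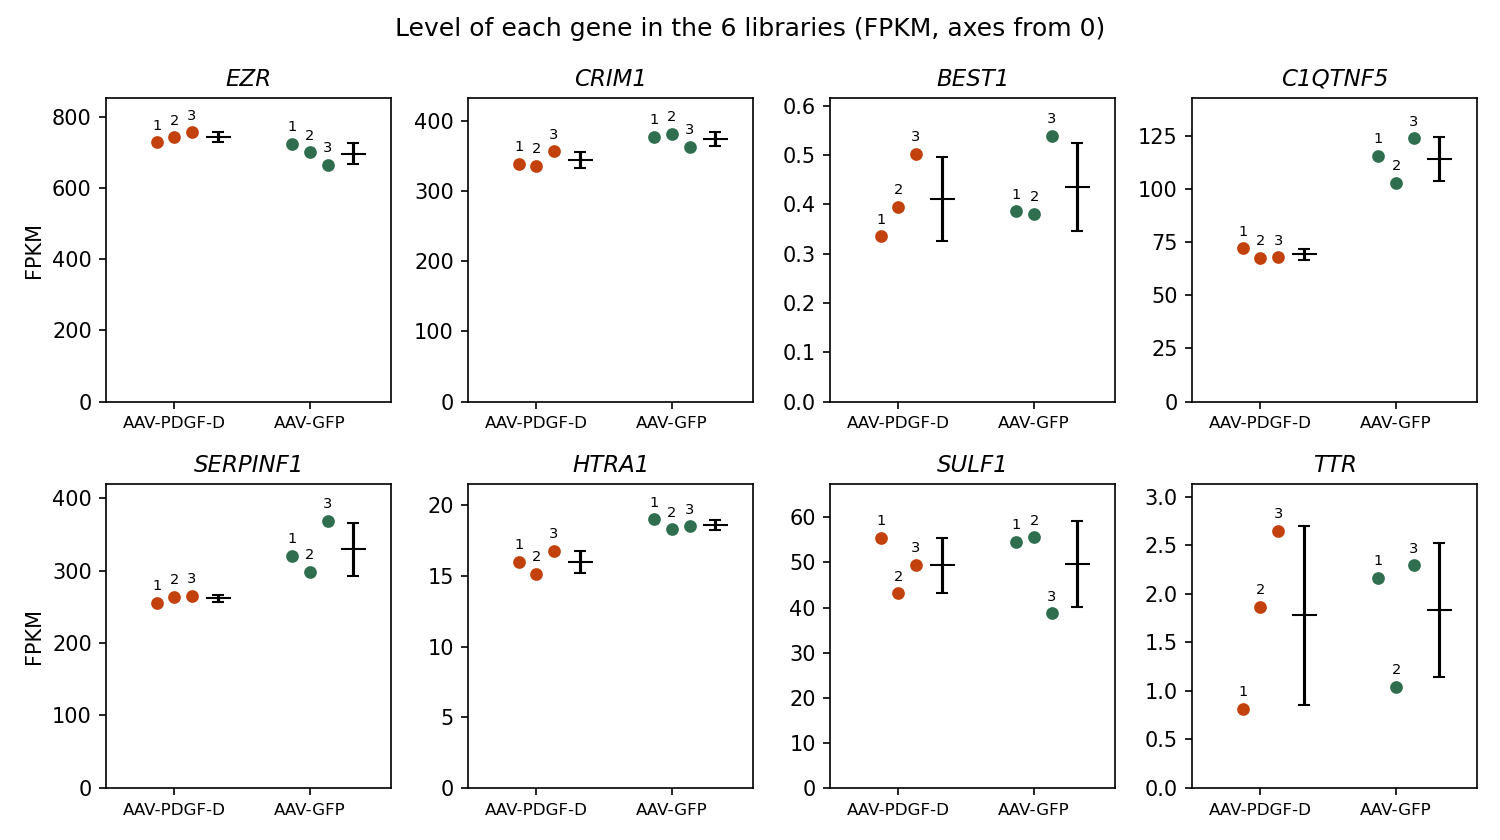
FPKM of the 8 genes in each library, with AAV-PDGF-D on the left and AAV-GFP on the right of each panel; points are libraries with their replicate number, bars are mean ± SD (n = 3), and each axis starts at 0. The C1QTNF5 libraries labelled AAV-PDGF-D lie between 67.6 and 72.1 FPKM, below all of those labelled AAV-GFP, while the TTR and SULF1 libraries overlap.

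Among the surface proteins, EZR was by far the most abundant gene of the group. It encodes ezrin, which ties actin filaments to the plasma membrane in microvilli. EZR was at 727, 742 and 756 FPKM in the libraries labelled AAV-PDGF-D, against 724, 699 and 664 FPKM in those labelled AAV-GFP. The groups did not overlap, although the lowest AAV-PDGF-D value lay only just above the highest AAV-GFP value. The log2 fold change of EZR was 0.09 (standard error 0.05, 95% interval -0.01 to 0.20, adjusted p = 0.191 from limma), so the difference did not pass. In every library, EZR ranked above 99% of all rows, between percentiles 99.35 and 99.43.

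CRIM1, a transmembrane protein with cysteine-rich repeats that bind BMP growth factors, was the next surface gene by level. CRIM1 was at 339, 335 and 356 FPKM with the label AAV-PDGF-D and at 377, 381 and 363 FPKM with the label AAV-GFP. All AAV-PDGF-D libraries were lower, by a small step, since AAV-PDGF-D replicate 3 lay close to AAV-GFP replicate 3. CRIM1 differed by -0.12 on the log2 scale (standard error 0.04, adjusted p = 0.0856 from limma). The adjusted p of CRIM1 rose above 0.1 when any single library other than AAV-PDGF-D replicate 3 was left out (up to 0.225), with the replicate block (0.208), without a variance trend (0.190) and without a filter on low values (0.108).

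BEST1 encodes bestrophin 1, a calcium-activated chloride channel of the basolateral RPE membrane. Its level was low in all 6 libraries, at 0.336, 0.396 and 0.503 FPKM with the label AAV-PDGF-D and at 0.386, 0.381 and 0.539 FPKM with the label AAV-GFP. The groups overlapped, and with a mean of 0.424 FPKM the gene was under the level needed for a call. Its log2 fold change was -0.07 with a 95% interval from -0.65 to 0.51, which reaches past 1.5-fold in the lower direction. BEST1 ranked between percentiles 21.9 and 24.7 of the rows, far below EZR and CRIM1.

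Among the secreted proteins, C1QTNF5 showed the largest difference. It encodes a short-chain collagen of the C1q and TNF family that the RPE makes and places at both its apical and basal sides. C1QTNF5 was at 72.1, 67.6 and 68.0 FPKM in the libraries labelled AAV-PDGF-D, against 116, 103 and 124 FPKM in those labelled AAV-GFP. The AAV-PDGF-D libraries lay close together, and the highest of them was well below the lowest AAV-GFP library, replicate 2. Means were 69.2 ± 2.51 FPKM and 114 ± 10.5 FPKM (SD, n = 3 each). On the log2 scale the difference was -0.72 (standard error 0.07, 95% interval -0.87 to -0.56, adjusted p = 0.00124 from limma), a ratio of 0.609 on that scale, with an interval that ends just short of 1.5-fold. The exact permutation test over libraries gave p = 0.1 for C1QTNF5, two-sided, which is the smallest that 3 against 3 can give. C1QTNF5 lies within the last part of the MFRP transcription unit, and how reads of that shared stretch were assigned is not given in the sources used here, so the row may hold reads of both genes. The C1QTNF5 call stood in all 17 alternatives, with log2 fold changes from -0.79 without AAV-GFP replicate 2 to -0.66 without AAV-GFP replicate 3, and with adjusted p from 0.000851 to 0.0376.

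SERPINF1, which encodes the pigment epithelium-derived factor PEDF, a secreted serpin without protease inhibition that restrains vessel growth, was the most abundant secreted gene of the group. Its libraries labelled AAV-PDGF-D were at 255, 264 and 265 FPKM, against 321, 298 and 369 FPKM with the label AAV-GFP. The groups did not overlap, and the AAV-GFP libraries were more widely spread, with a coefficient of variation of 2.05% for AAV-PDGF-D and 10.9% for AAV-GFP. SERPINF1 differed by -0.33 on the log2 scale (standard error 0.07, 95% interval -0.49 to -0.16, adjusted p = 0.0184 from limma). The whole interval lies below 0 and inside the 1.5-fold threshold. Without AAV-GFP replicate 3, the highest library, the log2 fold change was -0.24 and the adjusted p 0.0301.

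HTRA1, a secreted serine protease that cleaves matrix proteins such as fibronectin, was at 16.0, 15.2 and 16.8 FPKM with the label AAV-PDGF-D and at 19.0, 18.3 and 18.5 FPKM with the label AAV-GFP. The groups did not overlap, with means of 16.0 ± 0.805 FPKM for AAV-PDGF-D and 18.6 ± 0.355 FPKM for AAV-GFP (SD, n = 3 each). HTRA1 differed by -0.22 on the log2 scale (standard error 0.06, adjusted p = 0.0367 from limma). The adjusted p was 0.123 without AAV-PDGF-D replicate 2 and 0.105 without AAV-GFP replicate 1.

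SULF1 encodes an extracellular sulfatase that trims sulfate groups from heparan sulfate chains and so alters how growth factors bind them. SULF1 was at 55.4, 43.1 and 49.5 FPKM with the label AAV-PDGF-D and at 54.6, 55.6 and 38.8 FPKM with the label AAV-GFP. One library in each group stood low, AAV-PDGF-D replicate 2 and AAV-GFP replicate 3, and the groups overlapped throughout. SULF1 had a log2 fold change of 0.0025, and its 95% interval ran from -0.33 to 0.33, so a change of up to that size in either direction fits within the spread.

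TTR, the carrier of thyroxine and of the retinol-binding protein, was low and variable, at 0.814, 1.87 and 2.65 FPKM with the label AAV-PDGF-D and at 2.17, 1.04 and 2.30 FPKM with the label AAV-GFP. The lowest and the highest library were both labelled AAV-PDGF-D. The log2 fold change of TTR was -0.11 with a 95% interval of -1.08 to 0.86, the widest of the group. Its direction turned without AAV-PDGF-D replicate 1 (0.34), AAV-GFP replicate 1 (0.04) or AAV-GFP replicate 3 (0.08), so no direction can be given for TTR.

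**Figure D2:**
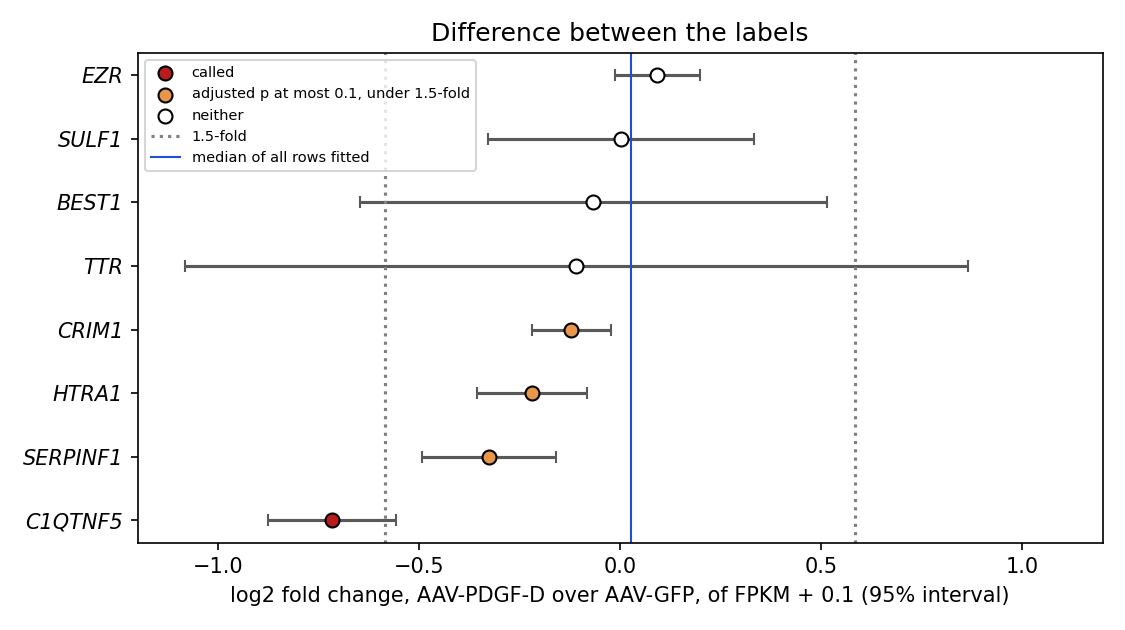
Log2 fold change of FPKM + 0.1, AAV-PDGF-D over AAV-GFP, for the 8 genes with 95% intervals from limma (n = 3 libraries each); dotted lines mark 1.5-fold and the blue line the median over all rows of the fit (0.03). Only the C1QTNF5 estimate lies past 1.5-fold, at -0.72, with an interval that ends just inside it, and the intervals of TTR and BEST1 are the widest.

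By role, 1 of the 2 surface genes with a mean of 1 FPKM or more and 3 of the 5 secreted genes were lower at the adjusted p, and 0 of either were higher. Over the 11444 rows with that mean, 11.7% were lower and 20.9% higher at the adjusted p. The 3 surface genes had a median log2 fold change of -0.07 and the 5 secreted genes one of -0.22. The difference between the roles was not tested. Groups did not overlap for 4 genes in the lower direction (C1QTNF5, SERPINF1, HTRA1 and CRIM1) and for 1 in the higher (EZR), where 16.4% and 27.3% of the 11444 rows did not overlap in these directions. The summed FPKM of the 8 genes was 1466, 1470 and 1515 in the libraries labelled AAV-PDGF-D and 1613, 1556 and 1579 in those labelled AAV-GFP. This was between 0.284 and 0.297% of the sum over all rows in the AAV-PDGF-D libraries, and between 0.312 and 0.3203% in the AAV-GFP libraries. EZR, the largest part of the sum, went the other way, with means of 742 FPKM for AAV-PDGF-D and 696 FPKM for AAV-GFP. The lower sum came mostly from SERPINF1 (262 against 329 FPKM), C1QTNF5 (69.2 against 114 FPKM) and CRIM1 (344 against 374 FPKM).

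**Figure D3:**
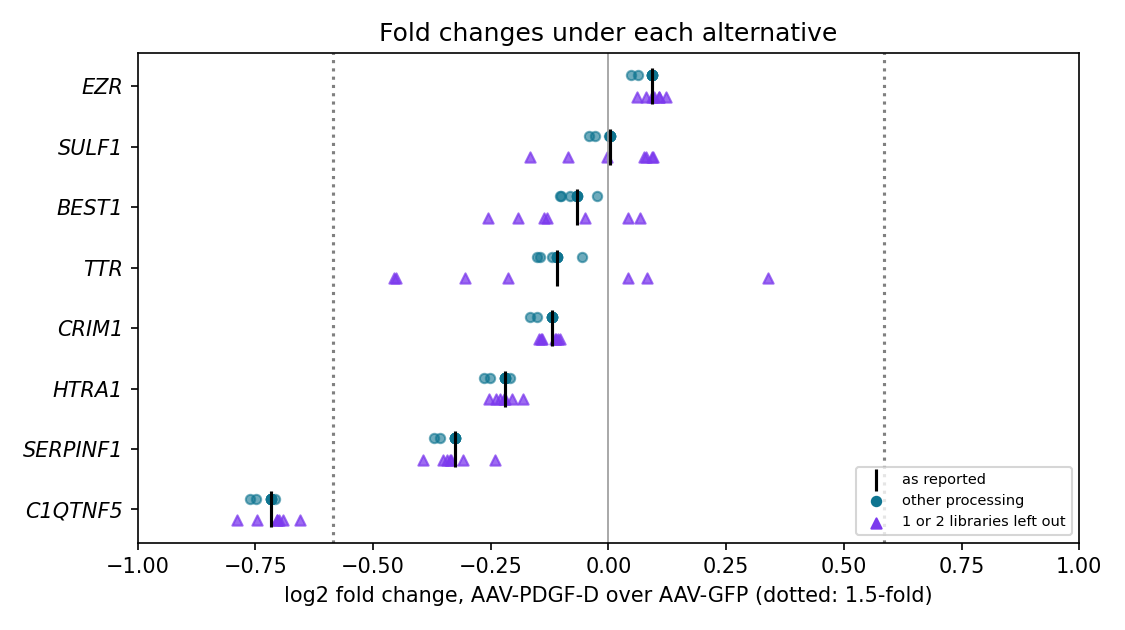
Log2 fold change of each gene, AAV-PDGF-D over AAV-GFP, as reported (black bar), under other processing (circles) and with 1 or 2 libraries left out (triangles). C1QTNF5 stays between -0.79 and -0.66, while TTR ranges from -0.46 to 0.34.

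The label was checked against other markers of the pigment epithelium. Of 24 such genes with a row, 17 reached 1 FPKM in each of the 6 libraries, and the keratins KRT8 and KRT18 were the most abundant, at 1277 and 769 FPKM. Besides RPE65 and SLC16A8, given below, those with a mean under 1 FPKM were LRAT (0.145), KCNJ13 (0.164), CDH1 (0.218), CDH3 (0.225) and CLDN19 (0.474). These were named after their values were seen. RPE65, the isomerase of the visual cycle and the most specific marker, was at 0.588 to 0.840 FPKM with the label AAV-PDGF-D and at 0.792 to 1.29 FPKM with the label AAV-GFP, and its mean of 0.869 FPKM was under the level needed for a call. RPE65 was chosen for naming after its values were seen. The markers summed to between 3388 and 3472 FPKM in the AAV-PDGF-D libraries and between 3350 and 3420 FPKM in the AAV-GFP libraries, ranges that overlapped and that came mostly from KRT8 and KRT18. Of the 17 markers with a mean of 1 FPKM or more, 8 were lower and 1 was higher at the adjusted p. Over all 11444 rows with that mean, these shares were 11.7% and 20.9%. A negative log2 fold change was found in 19 of the 24 markers, against 6292 of the 13821 rows of the fit. Of the 17 markers, 3 were called lower and 0 higher, against 1.75% and 2.01% of the 11444 rows. PMEL was at a log2 fold change of -0.84, TYRP1 at -0.80 and TRPM1 at -0.61. PMEL forms the fibrils of the melanosome, TYRP1 is a melanin enzyme and TRPM1 is a cation channel of pigment cells. The most negative log2 fold change of the 24 markers was that of SLC16A8, at -1.92 (adjusted p = 0.00437 from limma), without overlap of the groups. The mean of SLC16A8, 0.824 FPKM, was under the level needed for a call, and SLC16A8 was chosen for naming after its values were seen. The TRPM1 call was lost without AAV-PDGF-D replicate 3 (-0.53), AAV-GFP replicate 1 (-0.55) or AAV-GFP replicate 3 (-0.48), with a pseudocount of 1 (-0.49), and without both libraries with hemoglobin (-0.48), where TYRP1 was not called either (-0.80, adjusted p = 0.102 from limma). KRT8 was higher at the adjusted p, with a log2 fold change of 0.19 (adjusted p = 0.0212 from limma), and KRT18 had one of 0.10 and did not pass.

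Markers of other cells were measured in the same way, and their part in the values above was not tested. Their counts at the adjusted p stand beside 11.7% lower and 20.9% higher over the 11444 rows. Macrophage markers summed to between 21.1 and 22.1 FPKM with the label AAV-PDGF-D and between 18.2 and 20.7 FPKM with the label AAV-GFP, nearly all from CD68, whose log2 fold change of 0.20 passed the adjusted p but not with median-of-ratios scaling (adjusted p = 0.128 from limma), and of 5 with a row PTPRC, the antigen of all leukocytes, was at most 0.0629 FPKM in any library. CSF1R, the receptor of the macrophage growth factor, was called lower, with a mean of 0.697 FPKM in the AAV-PDGF-D libraries and 1.46 FPKM in the AAV-GFP libraries, but not without AAV-GFP replicate 2 or 3, where its mean was under 1 FPKM, or with a pseudocount of 1 (-0.53). Endothelial markers summed to between 32.5 and 37.3 FPKM in the AAV-PDGF-D libraries and between 39.8 and 40.5 FPKM in the AAV-GFP libraries, mostly from EGFL7 and KDR, which were the 2 with a mean of 1 FPKM or more and were both lower at the adjusted p, with PECAM1 at a mean of 0.167 FPKM. Fibroblast markers, led by COL1A1 and THY1, summed to between 256 and 275 FPKM in the AAV-PDGF-D libraries and between 262 and 302 FPKM in the AAV-GFP libraries, with 1 of 8 higher and 4 lower at the adjusted p. Markers of pericytes and smooth muscle cells, led by TAGLN and ACTA2, summed to between 1805 and 1885 FPKM in the AAV-PDGF-D libraries. Their sum was between 1915 and 2091 FPKM in the AAV-GFP libraries, with 1 of 8 higher and 3 lower at the adjusted p. MYH11, the smooth muscle myosin of that list, was at most 0.0263 FPKM in any library. Rod markers summed to at most 6.06 FPKM and markers of liver, the main source of TTR in the body, to at most 5.19 FPKM in any library. Of the melanocyte markers only TYR, tyrosinase, reached a mean of 1 FPKM, and it was lower at the adjusted p with a log2 fold change of -0.43. In bulk RNA, fewer cells of a type and less RNA per cell cannot be told apart. Hemoglobin reads marked 2 libraries, with HBA1 at 219 FPKM in AAV-PDGF-D replicate 3 and 168 FPKM in AAV-GFP replicate 1, while the remaining 4 did not exceed 0.319 FPKM. Without both, C1QTNF5 was still called lower (-0.69, adjusted p = 0.0376 from limma), whereas SERPINF1 (-0.35, adjusted p = 0.110), HTRA1 (-0.24, adjusted p = 0.121) and CRIM1 (-0.14, adjusted p = 0.195) no longer passed the adjusted p with 4 libraries.

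Genes that act with these proteins were read from lists of their partners and relatives. Of 95 such genes with a mean of 1 FPKM or more, 1 was called higher and 3 lower, and 11 were higher and 25 lower at the adjusted p alone. Over the 11444 rows with that mean, 1.75% were called lower and 2.01% higher, and 11.7% were lower and 20.9% higher at the adjusted p alone. Among the partner genes, the share lower at the adjusted p alone stood above that of all rows. The share higher stood below that of all rows, with no test of either. Counts for the single lists below are descriptions, to be set beside the same shares.

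Around EZR, the list of its relatives and the apical scaffold had 4 of 12 genes higher and 1 lower at the adjusted p. The shares over all 11444 rows were 20.9% higher and 11.7% lower. RHOA, the small GTPase that switches ezrin on through its kinases, was at 363 ± 23.3 FPKM with the label AAV-PDGF-D and 307 ± 2.21 FPKM with the label AAV-GFP (SD, n = 3 each), a log2 fold change of 0.24. SLC9A3R1, the scaffold protein NHERF1 that ezrin holds under the apical membrane, had a log2 fold change of 0.15 (adjusted p = 0.0698 from limma, and 0.205 with median-of-ratios scaling). Neither was past 1.5-fold. Around CRIM1, 2 of 9 proteins that bind BMP ligands or their relatives were lower at the adjusted p and 0 higher. FSTL3, a secreted inhibitor of activin, was lower with a log2 fold change of -0.31 (adjusted p = 0.00516 from limma), and FSTL1 did not pass, with one of 0.07.

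Around BEST1, the other bestrophins and ion transporters of epithelia had 3 of 16 genes higher and 3 lower at the adjusted p. Over all 11444 rows, 20.9% were higher and 11.7% lower. CA12, a membrane-bound carbonic anhydrase, was called higher and was the only call in that direction among the partner genes. CA12 was at 13.9, 14.2 and 13.2 FPKM with the label AAV-PDGF-D, against 7.42, 7.88 and 7.36 FPKM with the label AAV-GFP, so the groups lay far apart. CA12 differed by 0.86 on the log2 scale (standard error 0.07, adjusted p = 0.000572 from limma). BSG, the surface glycoprotein basigin that escorts lactate transporters, and SLC16A3, one of those transporters, were the most abundant, with log2 fold changes of -0.07 and -0.00059 that did not pass. SLC16A8, a relative of SLC16A3, had the largest difference of this list, at -1.92. With a mean of 0.824 FPKM it was under the level needed for a call.

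Of the rest of the C1q domain family, COL8A1 was more abundant than C1QTNF5 by FPKM, and the others were far lower. Only 4 of the 19 family members with a row had a mean of 1 FPKM or more, and the median over the 19 was 0.541 FPKM. COL8A1, a collagen of basement membranes and the most abundant, was at 118 ± 4.40 FPKM with the label AAV-PDGF-D and 117 ± 9.57 FPKM with the label AAV-GFP (SD, n = 3 each). COL8A1 had a log2 fold change of 0.02, which turned to -0.0098 with TPM scaling and -0.024 with median-of-ratios scaling, and C1QTNF6 had one of -0.11. Neither passed, and 1 member of the family, COL8A2, was lower at the adjusted p with a log2 fold change of -0.56; it was chosen for naming after its values were seen. The frizzled domain family, to which MFRP belongs, had 6 of 13 genes lower and 1 higher at the adjusted p. Of all 11444 rows, 11.7% were lower and 20.9% higher. SFRP5, a secreted Wnt antagonist, was called lower, at 9.70 ± 1.18 FPKM with the label AAV-PDGF-D and 15.3 ± 3.005 FPKM with the label AAV-GFP (SD, n = 3 each), a log2 fold change of -0.64. The SFRP5 call was lost without AAV-PDGF-D replicate 1 (-0.54) and without AAV-GFP replicate 3 (-0.49). COL18A1, which gives rise to endostatin and is also a heparan sulfate core protein, and SFRP1 were lower at the adjusted p with log2 fold changes of -0.38 and -0.15.

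Of the proteins reported to bind PEDF, PNPLA2, a lipase, was lower at the adjusted p as SERPINF1 was, at 42.3 ± 0.747 FPKM with the label AAV-PDGF-D and 50.8 ± 5.37 FPKM with the label AAV-GFP (SD, n = 3 each), a log2 fold change of -0.26. RPSA, the laminin receptor and a ribosomal protein, had one of 0.09 and did not pass. This list of 6, which also holds the neighbouring serpin gene, had 1 of 5 genes lower and 0 higher. The shares over all 11444 rows were 11.7% lower and 20.9% higher.

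Within its own family, HTRA1 differed by less than HTRA4. HTRA4 was at 2.92, 2.56 and 3.69 FPKM with the label AAV-PDGF-D, against 6.36, 6.11 and 7.495 FPKM with the label AAV-GFP, without overlap. HTRA4 differed by -1.11 on the log2 scale (standard error 0.15, adjusted p = 0.00316 from limma), past that of C1QTNF5, and the 2 were not tested against each other. HTRA2, the mitochondrial member, had a log2 fold change of -0.09 and did not pass. Of 8 proteins described as targets of HTRA1, 4 were lower and 0 higher at the adjusted p. Over all 11444 rows, 11.7% were lower and 20.9% higher. VTN, vitronectin, was called lower, at 3.97 ± 0.0447 FPKM with the label AAV-PDGF-D and 6.37 ± 0.524 FPKM with the label AAV-GFP (SD, n = 3 each), with a log2 fold change of -0.67. FN1, fibronectin, was at 443 ± 9.65 FPKM with the label AAV-PDGF-D and 436 ± 53.4 FPKM with the label AAV-GFP (SD, n = 3 each) and did not pass, nor did ADAM9 with a log2 fold change of 0.08. The VTN call was lost with a pseudocount of 1 (-0.57).

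Around SULF1, the heparan sulfate core proteins had 5 of 10 genes lower and 1 higher at the adjusted p. Of all 11444 rows, 11.7% were lower and 20.9% higher. The core proteins summed to between 1016 and 1150 FPKM in the AAV-PDGF-D libraries and between 1256 and 1325 FPKM in the AAV-GFP libraries. AGRN, agrin, was lower at the adjusted p with a log2 fold change of -0.27. The enzymes that build or edit the chains had 2 of 12 genes higher and 1 lower, and EXT1 and EXT2, which lengthen the chains, were the most abundant and did not pass, with log2 fold changes of -0.10 and 0.11, although EXT1 did with median-of-ratios scaling (adjusted p = 0.0305 from limma). SULF2, the other sulfatase and chosen for naming after its values were seen, was at 17.8, 17.3 and 18.3 FPKM with the label AAV-PDGF-D and 19.6, 21.7 and 19.7 FPKM with the label AAV-GFP. SULF2 had a log2 fold change of -0.19 (adjusted p = 0.0698 from limma). Around TTR, 1 of 5 genes for the carriage of retinol and thyroid hormone was lower and 0 higher at the adjusted p. DIO2, a thyroxine-activating enzyme, did not pass, with a log2 fold change of -0.05.

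**Figure D4:**
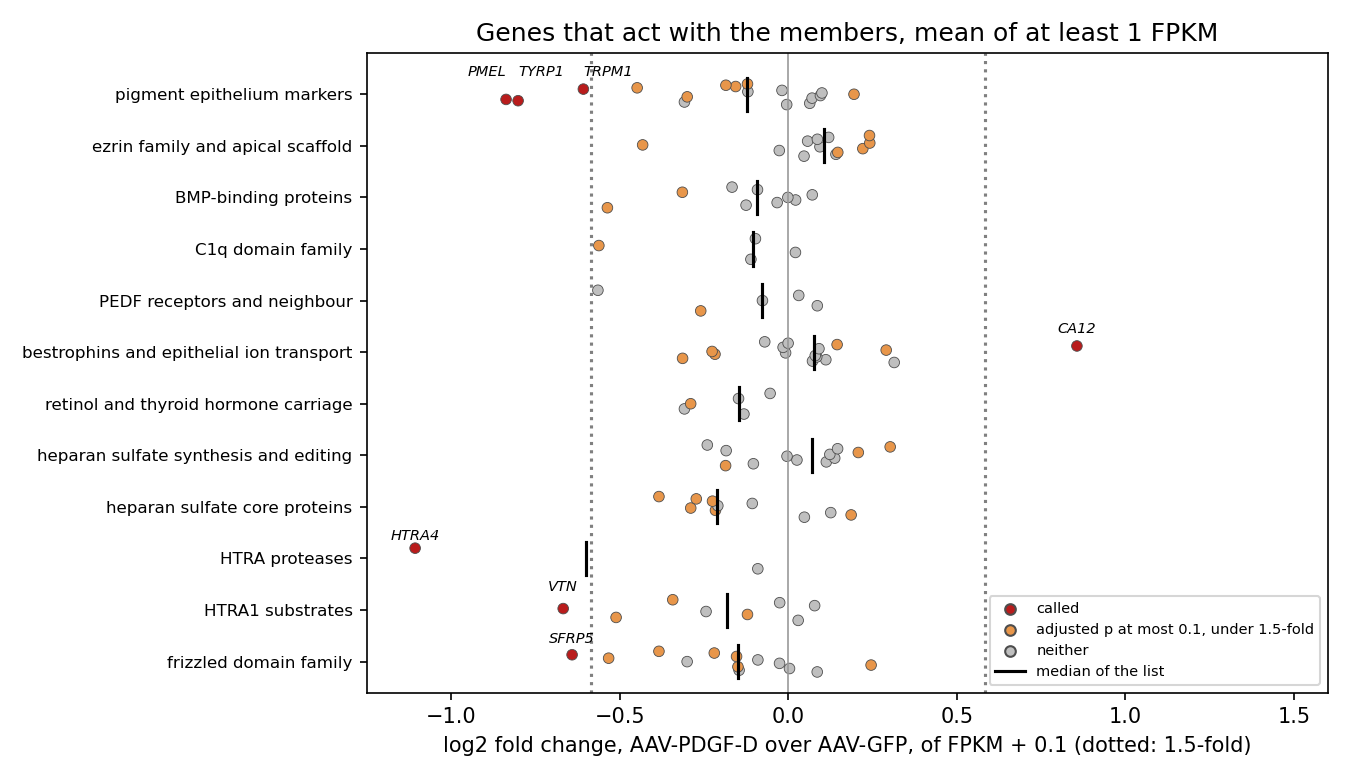
Log2 fold change of FPKM + 0.1, AAV-PDGF-D over AAV-GFP, for genes of the partner lists and of the pigment epithelium markers with a mean of at least 1 FPKM; each point is a gene, black bars are list medians and dotted lines mark 1.5-fold. CA12 is the only gene past 1.5-fold in the higher direction, at 0.86, and HTRA4, at -1.11, lies farthest in the lower direction.

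The rows whose pattern over the 6 libraries was most like that of C1QTNF5 were MTURN, PAPLN and SYNE2, with Pearson r of 0.999, 0.998 and 0.998 on log2(FPKM + 0.1). MTURN had a log2 fold change of -0.55, PAPLN one of -0.51 and SYNE2 one of -0.40. Among 11443 rows searched, 323 had an r above 0.95 with C1QTNF5, and all 6 points share the difference between the labels, so this is a description only. For TTR the most similar were PERP, VPS41 and METTL25, with r of 0.991, 0.983 and 0.982, and 16 rows lay above 0.95.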

How the data were processed

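The deposited table holds FPKM values that the authors computed per gene, 1 column for each of the 6 libraries. Per the methods and the submitters' processing notes these came from STAR 2.4.2a and RSEM 1.2.29 with mm10. The rows are human genes, with 15504 human Ensembl IDs and 687 new genes of Homo sapiens, and for the build behind them the sources used here give nothing. The table holds no counts, so read depth is unknown and no count model was run. Sequences of the human genes were not used here.

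Libraries were grouped by their labels. The 13821 rows whose mean reached 0.1 FPKM entered limma (version 3.58.1, under R 4.3.3), which was run with a trended variance on values transformed as log2(FPKM + 0.1), and with Benjamini-Hochberg adjustment over all of them. Fold changes on this scale understate those of low genes. The fit was also run on simulated data, with noise drawn independently for each gene and library. That run does not cover differences that genes share within a library. The members and the 20 gene lists were chosen with earlier results of these data known. Named in each list were up to 3 called genes with the largest change and the 2 most abundant, and, for C1QTNF5 and TTR, the 3 most correlated rows. One gene that this rule names is not reported here. Other names were chosen after their values were seen, as was the count at the adjusted p alone. The correlation of residuals between libraries sharing a number was -0.20 for 1, 0.0039 for 2 and -0.13 for 3. The replicate numbers were therefore not taken to pair libraries. With unlike numbers it was 0.29 for AAV-PDGF-D replicate 3 and AAV-GFP replicate 1, the 2 libraries with hemoglobin. It was 0.21 for AAV-PDGF-D replicate 1 and AAV-GFP replicate 2, and 0.16 for AAV-PDGF-D replicate 2 and AAV-GFP replicate 3. The remaining pairs were at 0.016, -0.14 and -0.19. The replicate block joined like numbers only, and what libraries with unlike numbers share was not tested.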

Additional observations from a re-analysis of the deposited data

How the results depend on the processing

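With 3 libraries in each group and no counts, small changes of low genes such as BEST1 and TTR could not be resolved. The 17 alternatives were other pseudocounts, filters, scalings, variance models and thresholds, a replicate block, and libraries left out. In all of them 0 of the 8 genes were called higher. C1QTNF5 was the 1 called lower in each, except that without a fold threshold 4 were, by construction. With the replicate block 1 gene was called lower, and 3 were lower at the adjusted p alone, against 4. That count was 2 to 4 with 1 library left out, with 2 without AAV-PDGF-D replicate 2 or AAV-GFP replicate 1, and 1 without both libraries with hemoglobin. The median log2 fold change of the 8 genes, -0.12, was -0.22 without AAV-PDGF-D replicate 3 and -0.098 without AAV-PDGF-D replicate 1. With both hemoglobin libraries removed it was -0.25. The median over all rows ranged from -0.02 with median-of-ratios scaling to 0.04 with a minimum mean of 1 FPKM, which also removed BEST1 from the fit.

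Of the partner genes, 3 were called lower and 1 higher. Without a fold threshold these were 25 and 11, 6 were lower with TPM scaling, and 2 to 6 with 1 library left out, with 6 without AAV-PDGF-D replicate 2 or AAV-GFP replicate 2. The cause was not tested.

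Directions turned only for genes that were not called. SULF1 had a log2 fold change of -0.028 with TPM scaling and -0.042 with median-of-ratios scaling, and -0.17 to 0.10 with 1 library left out. With 1 library left out, BEST1 ran from -0.19 to 0.067, and TTR from -0.46 to 0.34. FN1 was at -0.0018 with TPM scaling and -0.016 with median-of-ratios scaling, and ran from -0.049 to 0.12 with 1 library left out. COL8A1 was at -0.0098 and -0.024 with these scalings, and ran from -0.049 to 0.062. SLC16A3 ran from -0.066 to 0.066 with 1 library left out. When both hemoglobin libraries were removed, SLC16A3 was at 0.056 and HTRA2 at 0.033. Over 39 other named genes, 12 calls were lost and 16 gained, nearly all of the gains by construction, without a fold threshold. The ratio of C1QTNF5 to MFRP was planned and not run, since MFRP was not analysed here.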

Other observations

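Looked at after the values were seen, the 3 libraries labelled AAV-GFP fell in the same order for several genes of the pigment epithelium, with replicate 3 highest and replicate 2 lowest. Of the 7 genes of the group with a mean of 1 FPKM or more, C1QTNF5, SERPINF1 and TTR had this order, and of 17 pigment epithelium markers 8 had it, among them PMEL, TYRP1, TRPM1, OTX2 and GPNMB, against 17.6% of the 11444 rows. TYR, at 40.8, 31.8 and 48.8 FPKM in AAV-GFP replicates 1, 2 and 3, had it as well. EZR, CRIM1 and SULF1 were lowest in AAV-GFP replicate 3. The values are given as a description of these 3 libraries, and what differs between them was not tested.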
